A study of Mus musculus with 2 samples.

Results

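The genes described here are 10 smooth muscle contractile genes of the myometrium, the muscular wall of the uterus, namely Myh11, Acta2, Actg2, Tagln, Cnn1, Des, Smtn, Mylk, Flna and Myocd. They were chosen by name as genes of smooth muscle, with earlier results of these data known. A peak was given to a gene when its summit lay within the gene's RefSeq span, introns included. By this rule they held 85 of the 21192 peaks in the deposited list, and they are 10 of the 21900 protein-coding genes in the gene table. The mice were wild-type and at gestational day 4, and whole uterus was taken, with 1 library of RNA immunoprecipitated for N4-acetylcytidine (ac4C, cytidine carrying an acetyl group) and 1 input control library. Both libraries were made from polyA RNA. How many animals each holds was not given in the sources used here. With 1 library of each kind no value has a replicate check. Poisson intervals below cover counting error of the immunoprecipitation alone, and Wilson intervals reflect only the number of genes in a list.

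Smooth muscle shortens when myosin filaments pull on actin filaments. Calcium bound to calmodulin activates myosin light chain kinase, which phosphorylates the myosin light chain and starts the cycle. Actin-binding proteins tune the filaments, intermediate filaments and cross-linkers tie them to the cell, and the coactivator myocardin works with serum response factor (SRF) to switch the contractile genes on. In the uterus this muscle lies outside the endometrium, where the embryo implants.

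All 10 genes held at least 1 peak, from 1 in Cnn1 to 19 in Mylk. Across all protein-coding genes the share with a peak was 30.6%. The 95% Wilson interval of 10 of 10 genes reached down to 72.2%. The genes were chosen, not drawn at random, so this interval is a description and no test against that share. Myh11, Mylk, Flna and Smtn held 10 or more peaks, which 1.37% of protein-coding genes did. The median was 7.5 peaks per contractile gene, against 2 over the 6709 genes with any peak. Per 10 kb of span the medians were 3.05 and 0.845 peaks. Transcript abundance was not measured apart from the peaks, so its part in these counts was not tested. Exons were not told from introns, so the part of exon number in these counts was not tested either. A count of peaks is therefore not a count of ac4C sites.

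The peaks of these genes were many but low. Fold enrichment, the ratio of fragments at the summit to background as the authors' peak caller gave it, had a median of 3.87 over the 85 peaks (interquartile range 3.03 to 4.81), against 5.58 over the whole list (4.33 to 7.38). Only 14 of the 85 stood above the median of the list, and 66 were below 5. These summits were also deep. They rested on a median of 75 fragments (7 to 176) over a background of 19.3 fragments (0.438 to 57.8), where the median peak of the list had 22 fragments over 2.63. A −log10 q of at least 10 was reached by 61 of the 85 (71.8%), against 45.2% of the list. For the median peak, counting error put the 95% exact Poisson interval at 78.9% to 125% of the fold enrichment. Fragments and background were worked back from the deposited fold enrichment and p, and whether the background came from the input library was not given in the sources used here. Intervals are compared below as a description, not as a test.

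**Figure D1:**
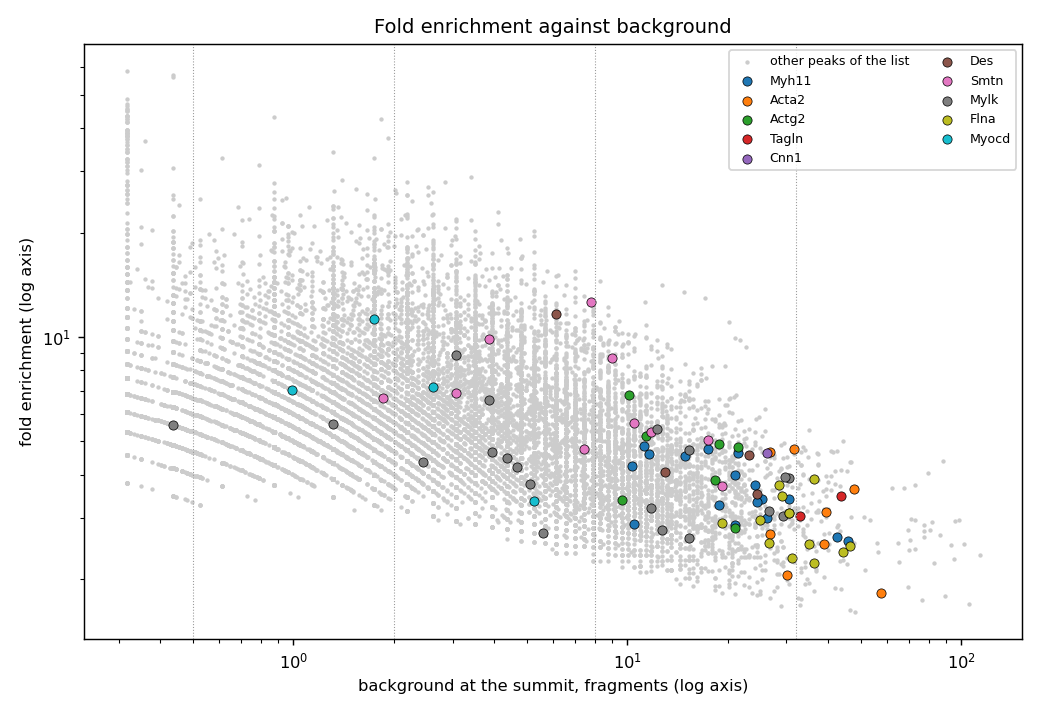
Fold enrichment of each peak against the background at its summit in fragments, both on log axes. Grey points are the other peaks of the list, coloured points the 85 peaks of the 10 contractile genes, and dotted lines the limits of the background classes. Most coloured points lie to the right, at a background of 8 fragments or more, where the whole cloud is lower.

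Low fold enrichment went with high background throughout the list. Across the 85 peaks Spearman's rho between fold enrichment and background was -0.68, and across the 21192 it was -0.47. Background is the divisor of the fold enrichment, the points share 2 libraries, and a peak enters the list at a lower fold when its background is high, so both values are descriptions. A background of 8 to 32 fragments held 52 of the 85 peaks (61.2%) but 13.3% of the list, and 32 fragments or more held 13 of them (15.3%) but 0.675% of the list. Within the class of 8 to 32 the contractile genes had a median fold enrichment of 3.74, beside 3.76 for all 2827 peaks of that class. At 32 and above the medians were 2.58 and 2.87. Over all classes, 40 of the 85 peaks stood above the median of their class. When each peak was instead set against the 200 others nearest in background, the number was 53.

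The genes differed in this respect. Smtn stood above the class median in 8 of its 10 peaks, Actg2 in 5 of 7, Des in 3 of 4 and Myocd in 3 of 4. Mylk did so in 6 of 19, Myh11 in 7 of 17 and Flna in 1 of 13. Against the 200 nearest peaks Myh11 had 11 of 17 and Flna 5 of 13, so the 2 ways of matching background gave different counts for these genes.

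Ordered by their highest peak, the genes ran from Smtn at 12.6 (95% interval 10.4 to 15.2) through Des at 11.6 (9.29 to 14.4), Myocd at 11.3 (7.72 to 15.9) and Mylk at 8.86 (6.24 to 12.2). These 4 intervals overlapped each other. The places of Des and Myocd each rested on 1 peak: with widths limited to 631 bp, which leaves out the 633 bp Des peak, their highest values were 4.08 and 7.17. The same limit leaves out the 1253 bp highest peak of Smtn. Its highest value was then 9.86, below its interval but still first in the order. Actg2 followed at 6.81 (5.38 to 8.52), then Myh11 at 4.83 (3.69 to 6.22), Acta2 at 4.74 (4.02 to 5.54), Cnn1 at 4.62 (3.85 to 5.5), Flna at 3.88 (3.28 to 4.57) and Tagln at 3.48 (2.96 to 4.07). No neighbours in this order were apart beyond their intervals. Of the 45 pairs of genes 21 overlapped, and Smtn and Des lay above Actg2 and every gene after it. A gene with many peaks has more chances of a high one, which these intervals leave out. Background differed as well. The highest peaks of Smtn, Des, Myocd and Mylk had backgrounds of 1.75 to 7.79 fragments, and those from Actg2 on 10.2 to 43.8. Within its background class the highest Actg2 peak stood above 93.3% of list peaks. The values were 97.0% for Smtn, 95.6% for Des, 89.8% for Myocd and 87.9% for Mylk. After Actg2 they were 75.8% for Myh11, 73.9% for Acta2, 71.3% for Cnn1, 79.7% for Flna and 68.5% for Tagln. By this measure Flna stood above Myh11, Acta2 and Cnn1. The part of background in the order was not tested. Over all genes with a peak the median of the highest peak was 6.61 (interquartile range 5.05 to 9.06), and 5 of the 10 contractile genes exceeded it.

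**Figure D2:**
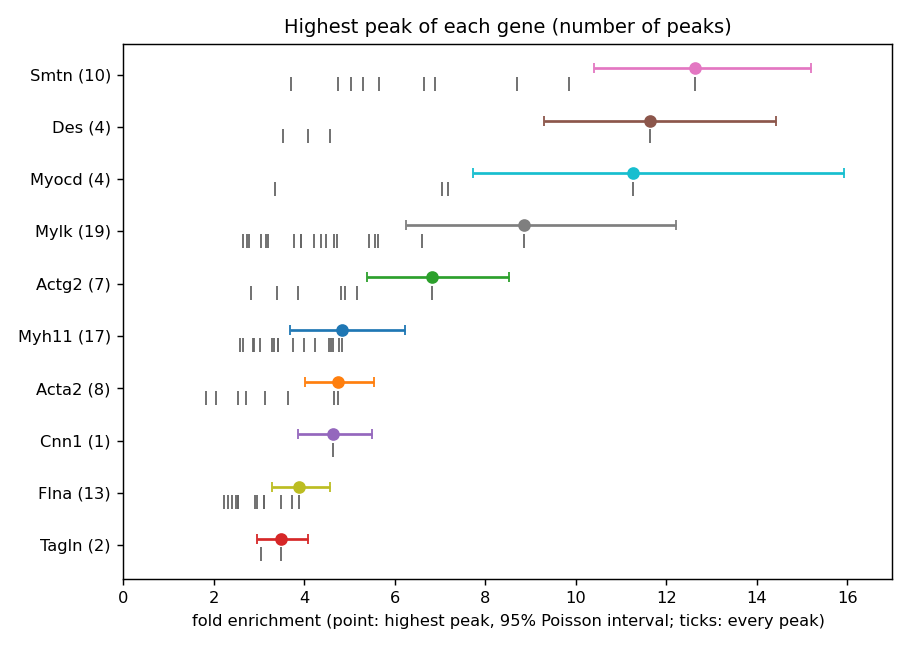
Fold enrichment of every peak (ticks) and of the highest peak (point, with the 95% exact Poisson interval) for each gene, with the number of peaks in parentheses. Smtn, Des and Myocd reach above 11, while every peak of Tagln, Cnn1, Flna, Acta2 and Myh11 lies below 5.

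Myh11, the smooth muscle myosin heavy chain, makes the thick filament (NCBI gene 17880; chromosome 16, 14194527 to 14292188, 97.7 kb). It held 17 peaks, more than 99.1% of genes with a peak did, at fold enrichments of 2.58 to 4.83. This was a narrow range on deep signal, with 32 to 120 fragments at each summit and backgrounds of 10.3 to 46.0. The highest peak (14248553 to 14249028) rested on 58 fragments over 11.2, and only 3 of the other 16 had an interval wholly below its own. Summits were spaced by a median of 2696 bp, the closest pair by 424 bp. All lay in the lower 62.2% of the span by coordinate, which left 36.9 kb at the other end without a summit. Spans include introns, so how much of this stretch, and of those named for other genes below, is in polyA RNA is unknown.

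Acta2, smooth muscle alpha-actin, is the most used marker of smooth muscle (NCBI gene 11475; chromosome 19, 34240336 to 34255585, minus strand). Its 8 peaks included the deepest summit among the 10 genes, 176 fragments over a background of 47.7, and also the lowest fold enrichment, 1.82 (1.49 to 2.2) over 57.8. From the 3′ end of the span to the 5′ end the fold enrichments were 3.63, 3.12, 4.74, 4.66, 2.71, 2.53, 1.82 and 2.05. The 4 summits nearest the 3′ end thus stood at 3.12 to 4.74 and the 4 nearest the 5′ end at 1.82 to 2.71. The intervals of these sets met, since the lowest of the first reached down to 2.60 and the highest of the second up to 3.39. Backgrounds from the 3′ end were 47.7, 39.4, 31.5, 26.7, 26.7, 39.0, 57.8 and 30.2 fragments. Their part in this contrast was not tested, and the split into 4 and 4 was not fixed beforehand. No summit lay in the first 20.3% of the span.

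Actg2, the gamma-actin of visceral smooth muscle (NCBI gene 11468; chromosome 6, 83512909 to 83536251), held 7 narrow peaks of 211 to 276 bp. In order of coordinate they stood at 4.81, 3.87, 5.17, 4.89, 6.81, 2.82 and 3.39. The highest (83523209 to 83523464; 75 fragments over 10.2) had an interval that overlapped that of the highest Acta2 peak, and 8.83 kb at the upper end of the span held no summit. Actin genes are close copies in their coding parts. How reads that match several genes were treated was not given in the sources used here, so the split of signal between actin genes is uncertain.

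Mylk, myosin light chain kinase, starts contraction (NCBI gene 107589; chromosome 16, 34745199 to 35002436, plus strand). The gene also encodes a longer non-muscle kinase from upstream starts. It held the most peaks of the set, 19, over the longest span, 257 kb, which came to 0.739 per 10 kb, the second lowest density. Most summits lay towards the 3′ end. None lay in the first 27.3% of the span (70.3 kb), while 16 of the 19 (84.2%) lay in the last 40%, where 58.8% of summits lay over all genes with a strand. In the last 10% the order was the other way, with 3 of 19 (15.8%) against 25.1%. The 40% limit was not fixed beforehand, so these shares are descriptions. The 3 summits in the last 10% lay within the last 2.13 kb. They stood at 3.92, 3.93 and 3.15 on 123, 120 and 86 fragments. The highest peak (34879027 to 34879503) stood at 8.86 near the middle of the span, on 35 fragments over 3.06. Its first peak from the 5′ end rested on 7 fragments over 0.438, the fewest of all 85. Backgrounds therefore ran from 0.438 to 30.6 within this 1 gene.

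Smtn, smoothelin, binds actin in differentiated smooth muscle (NCBI gene 29856; chromosome 11, 3517522 to 3539292, minus strand). Its 10 peaks covered 8729 bp, or 40.1% of the span, the largest share among the 10 genes. From the 5′ end they stood at 6.65, 6.89, 9.86, 4.74, 5.30, 12.6, 5.02, 8.70, 5.65 and 3.70. High and low peaks were interspersed along the gene, and 7 of the other 9 had intervals wholly below that of the highest (3529335 to 3530587; 110 fragments over 7.79). Of the 4 peaks of at least 1000 bp in the whole set, Smtn held 3, of 1253, 1617 and 2191 bp, and Cnn1 the other. Such peaks made up 4.71% of the 85 and 5.5% of the whole list. The 5 peaks nearest the 5′ end also lay within the long non-coding RNA gene Gm11946, and the list gave no strand to tell these genes apart.

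Cnn1, calponin, restrains the actin-activated myosin ATPase (NCBI gene 12797; chromosome 9, 22099221 to 22109221, plus strand). It held a single peak of 1085 bp (22107593 to 22108677), at 4.62 on 125 fragments over 26.3, with its summit 89.7% of the way along the span. The remaining 8.97 kb before it had none. Tagln, transgelin or SM22, cross-links actin (NCBI gene 21345; chromosome 9, 45929628 to 45936058). Its 2 peaks stood at 3.48 and 3.04 on 155 and 102 fragments. Both summits lay where the span of Tagln overlaps that of Pcsk7, a protein convertase gene, and without strand neither could be given to 1 of these genes. Leaving out such shared summits left Tagln with no peak.

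Des, desmin, forms the intermediate filaments of muscle (NCBI gene 13346; chromosome 1, 75360292 to 75368579, plus strand). Its 4 peaks stood at 11.6, 4.08, 3.53 and 4.56 from the 5′ end. The first (75360335 to 75360967; 82 fragments over 6.13) lay apart from the rest, since the intervals of all 3 others ended below its lower bound of 9.29. Fragments at the 4 summits were 82, 56, 89 and 109. The first peak was not the deepest, and its background of 6.13 was the lowest, against 13, 24.5 and 23.1. Whether that low background gave the first peak its height was not tested.

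Flna, filamin A, cross-links actin and anchors it to integrins in muscle and non-muscle cells alike (NCBI gene 192176; X chromosome, 74223461 to 74249854, minus strand). Its 13 peaks were spread over the span, from 13.6% to 98.7% of the way from the 5′ end, and covered 25.9% of it. All were low, at 2.22 to 3.88, on 58 to 144 fragments and backgrounds of 19.3 to 46.4. The highest (74227650 to 74228082) rested on 144 fragments over 36.3. Of 966 protein-coding genes on the X chromosome 148 held a peak, and Flna was 1 of the 2 with at least 13.

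Peaks reached the annotated start of transcription in Flna and came close in Des, and the bases there are printed to show where the signal began. They come from RefSeq promoter windows of GRCm38.p6, and capitals mark bases under the peak. The Flna stretch runs from 60 bases upstream of the start to the 30th transcribed base, and 31 upstream bases lay under the peak (chrX:74246505-74246594, minus strand, GRCm38.p6). The Flna span goes on beyond this start, so upstream bases may be transcribed too. The Des stretch holds the last 30 bases of its window, whose peak began at transcribed base 44 (chr1:75360312-75360341, plus strand).
Flna: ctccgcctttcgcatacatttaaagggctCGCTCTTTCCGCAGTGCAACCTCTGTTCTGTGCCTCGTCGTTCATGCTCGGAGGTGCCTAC
Des: gacagctaaggggctccgtcaccCATCTTC

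The 30 transcribed bases shown for Flna held 10 cytidines and those for Des 11. The Flna peak stood at 3.10 with its summit 262 bases after the start, and the Des peak at 11.6 with its summit 493 bases after it. In Smtn and Acta2 the first summit lay 2054 and 2879 bases past the start, in Cnn1 8933 and in Mylk 30587. The Mylk start used here (34784950) lies inside its span, which begins at 34745199. Part of the 70.3 kb of Mylk without a summit is therefore upstream of that start.

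Myocd, myocardin, is the SRF coactivator that directs smooth muscle genes (NCBI gene 214384; chromosome 11, 65173608 to 65269989). It had the thinnest signal of the set. Its 4 peaks stood at 3.36, 7.04, 11.3 and 7.17 in order of coordinate, on 20, 13, 30 and 25 fragments over backgrounds of 0.989 to 5.25. The highest (65187006 to 65187832) had a wide interval, 7.72 to 15.9, which overlapped those of the 7.04 and 7.17 peaks. All 4 summits lay in the lower 23.6% of the span, and 73.6 kb held none.

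**Figure D3:**
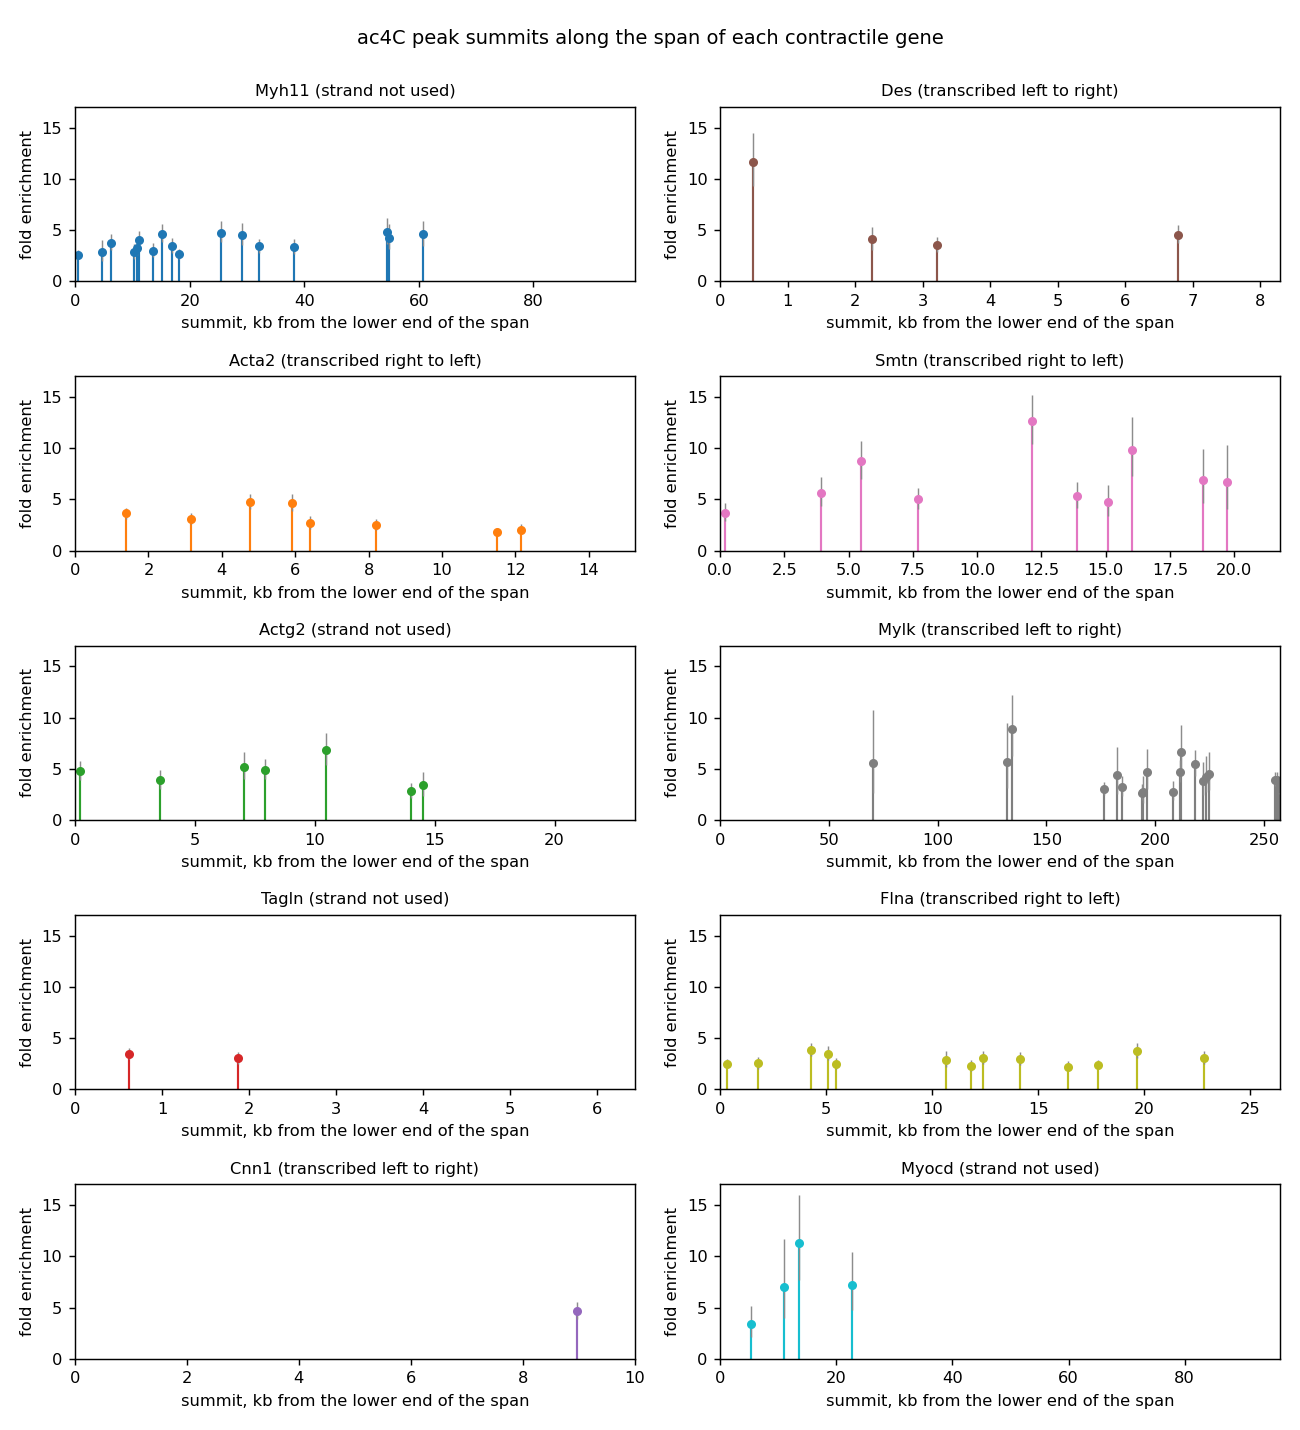
Peak summits along the span of each gene, in kb from its lower-coordinate end, with height giving fold enrichment and grey bars the 95% exact Poisson interval. Most summits lie towards the 3′ end in Mylk, run along most of Flna, Acta2 and Smtn, and are missing from 73.6 kb of Myocd. Spans include introns, which were not told from exons.

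Strand could be taken from RefSeq promoter windows of GRCm38.p6 for 6 of the 10 genes, all but Myh11, Actg2, Tagln and Myocd. Of the 55 peaks in those 6 genes, 2 (3.64%) lay in the first 10% of the span and 7 (12.7%) in the last 10%. Over 16163 placements of summits in 5351 genes with a strand, the shares were 11.2% and 25.1%. Both shares were lower in the contractile genes. Peaks of 1 gene share its transcripts, and Mylk alone held 19 of the 55, so these shares are given without an interval and as a description. The median summit lay at 68.7% of the span here and at 70.1% over all.

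Closest relatives of the 10 genes, many of them made in non-muscle or striated muscle cells, were set beside them. Of 22 relatives 17 held a peak (77.3%, 95% Wilson interval 56.6 to 89.9%). Among actins, Acta2 and Actg2 held 8 and 7 peaks, and the cytoplasmic Actb and Actg1 held 2 and 1, with 202 and 155 fragments at their highest peaks. Spans differed, and per 10 kb the values were 5.25 for Acta2, 3.0 for Actg2, 4.11 for Actb and 3.56 for Actg1. Cardiac Actc1 held none. Skeletal Acta1 held 1, at 9.19 (7.26 to 11.5). Its interval lay above those of the highest Acta2, Actb and Actg1 peaks but overlapped that of Actg2. Background was 7.27 fragments at the Acta1 peak, against 31.5 for Acta2, 42.5 for Actb and 39.8 for Actg1. The part of background in the difference was not tested, and reads shared between actin genes may enter the Acta1 value.

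Among filamins, Flna and Flnc were far apart. Flnc, the muscle filamin, held 20 peaks, the highest at 26.5 (21.1 to 33.0; chromosome 6, 29433256 to 29434027) on 79 fragments over 2.01. Flna held 13 peaks up to 3.88 (3.28 to 4.57), and these intervals did not overlap. Median background was 30.6 fragments at Flna peaks and 4.73 at Flnc peaks, the reverse order of the fold enrichments, and its part in the difference was not tested.

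Among myosins, the non-muscle heavy chain Myh9 held 21 peaks up to 12.8 (9.01 to 17.8), beside 17 peaks up to 4.83 in Myh11. Background was 1.72 fragments at the highest Myh9 peak and 11.2 at that of Myh11. Myh10 and Myh14 held 4 each, up to 6.69 (3.99 to 10.6) and 9.87 (5.47 to 16.7). Vim, the intermediate filament of stromal cells, held 6 peaks up to 8.23 (7.0 to 9.63), and its interval met that of Des. Synm, which joins desmin filaments, held 4 up to 7.84 (5.14 to 11.5). The SRF coactivators Mrtfa and Mrtfb held 7 and 8 peaks up to 9.55 (6.08 to 14.4) and 11.7 (8.42 to 15.8), which overlapped the interval of Myocd.

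In the smaller families the relatives often held peaks as well. Tagln2 held 3 peaks up to 7.17 (4.74 to 10.5), whose interval lay above that of Tagln, while Tagln3 held none. Background was 2.63 fragments at the highest Tagln2 peak and 43.8 at that of Tagln, and its part in the difference was not tested. Cnn2 held 3 up to 4.16 (2.75 to 6.06) and Cnn3 4 up to 6.71 (4.80 to 9.14), both overlapping Cnn1. Smtnl2 held 2 up to 12.1 (7.13 to 19.5), and Smtnl1 held none. Beside the 19 peaks of Mylk, Mylk2, the skeletal kinase, and Mylk3, the cardiac one, held no peak and Mylk4 held 1 at 5.5 (2.62 to 10.6) on 7 fragments, in a place shared with another protein-coding gene.

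**Figure D4:**
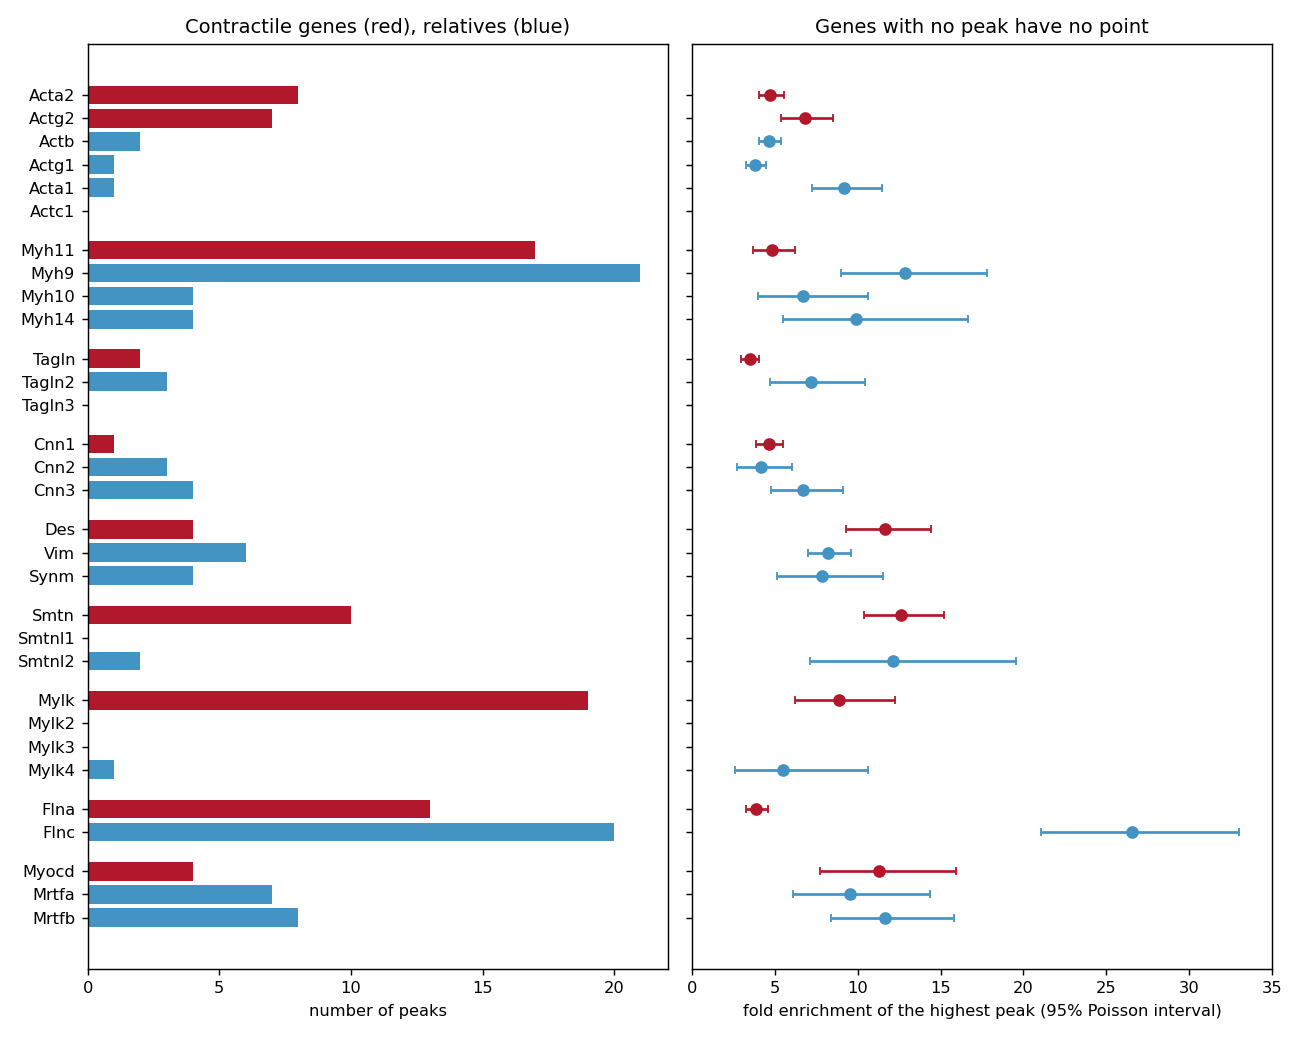
Number of peaks (left) and fold enrichment of the highest peak with its 95% exact Poisson interval (right) in each contractile gene (red) and the relatives named in the text (blue), grouped by family. Flnc and Myh9 hold 20 and 21 peaks, and the Flnc interval lies above all others drawn.

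A wider list of 60 other genes of smooth muscle contraction, its calcium handling, adhesion and hormone response was counted in the same way. Of these, 50 held a peak (83.3%, 95% Wilson interval 72.0 to 90.7%), with 214 peaks in all and a median of 3 in the genes that had any. The 10 contractile genes had a median of 7.5. The median highest fold enrichment was 6.89 in the 50 genes and 5.82 in the 10, with 6.61 over all genes with a peak. Most peaks were found in Tln1 (talin, which links integrins to actin) with 19, Cacna1c (the L-type calcium channel) with 17, Actn1 (alpha-actinin) with 15 and Atp2b4 (a plasma membrane calcium pump) with 12, followed by Ppp1r12b (a subunit of myosin phosphatase) and Synpo2 (an actin-binding protein) with 9 each.

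The highest fold enrichments of that list were those of Hspb1, a small heat shock protein, at 20.9 (15.1 to 28.3), Jph2, which holds the calcium store to the cell membrane, at 16.9 (12.8 to 22.1), and Srf at 16.9 (12.3 to 22.6). Atp2b4 at 16.1 (11.5 to 21.8) and Pdlim7, an actin-linked scaffold, at 15.8 (12.6 to 19.6) came next, and these 5 intervals overlapped. All 5 rested on 39 to 80 fragments over backgrounds of 0.963 to 4.13, lower than at most peaks of the 10 contractile genes. No peak was found in Rhoa, Itga8, Ldb3, Nexn, Kcnmb1, Ryr2, Pln, Oxtr, Ptgfr and Gucy1b1. These include the receptors for oxytocin (Oxtr) and prostaglandin F (Ptgfr), which drive uterine contraction at birth. A gene without a peak has no background in the list, so how much enrichment could have been missed there is unknown.

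Whole uterus holds other cell types, and their markers were counted too. A peak was found in 10 of 10 markers of endometrial stroma, 9 of 10 of epithelium, 9 of 10 of endothelium and 5 of 10 of leukocytes. The stromal markers resembled the contractile genes in other measures, with a median of 5 peaks per gene, a median highest fold enrichment of 5.94 (5.82 in the contractile genes) and a median of 18.5 for the genes' median backgrounds (19.7 in the contractile genes). Of 10 skeletal muscle markers, only Acta1 held one. The list of peaks gives no level of expression, so the number of muscle cells and the RNA per muscle cell cannot be told apart. The label of the tissue was checked only by which markers held peaks.

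**Figure D5:**
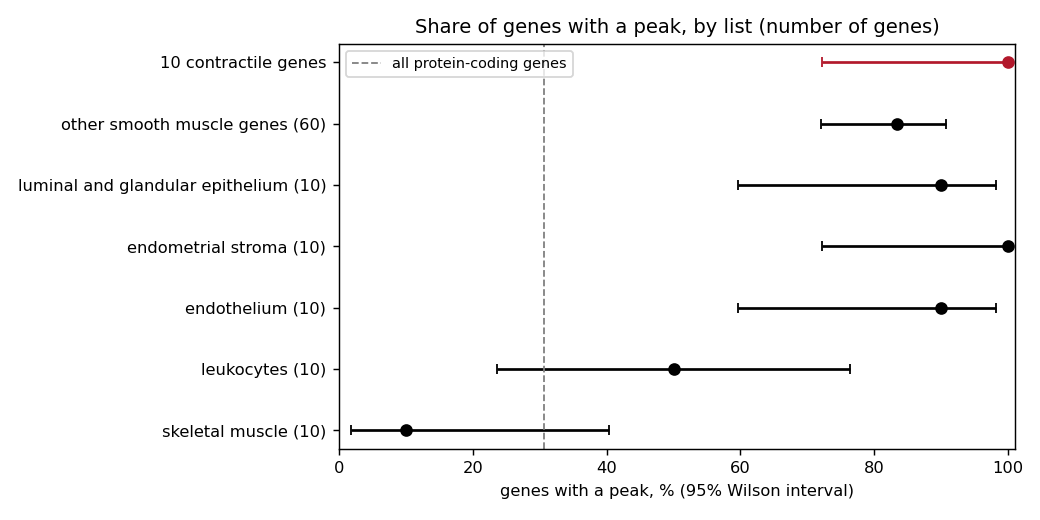
Share of genes with a peak in each list, as a percentage with its 95% Wilson interval, and the share over all protein-coding genes (dashed line, 30.6%). The contractile genes, the other smooth muscle genes and the markers of stroma, epithelium and endothelium lie above the line, and the interval of leukocyte and of skeletal muscle markers includes it. Genes were chosen, not drawn at random, so the intervals are descriptions.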

How the data were processed

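Values came from 1 narrowPeak list for 1 ac4C immunoprecipitation and 1 input library. HISAT2 2.2.1, MACS3 3.0.0a7 and build mm10 are named in the submitters' processing notes, without their roles. The fold enrichment (a ratio), −log10 p and −log10 q and score of each peak were deposited by the authors. Whether background came from the input was not given in the sources used here. The deposited list ended at a q-value of 0.0499 and gave strand for 0 peaks. From fold enrichment and p, with a pseudocount of 1, a whole number of fragments was found for 21192 of 21192 peaks, after a check on simulated data (scipy 1.17.1, Python 3.11.15). Fold intervals are exact Poisson (95%) and cover counting error only. Shares of genes have Wilson intervals (95%), which reflect only the number of genes in a list. PCR copies could not be told from molecules. No tests were run.

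Gene spans came from RefSeq GRCm38.p6, so exons were not told from introns. Background classes were cut at 0.5, 2, 8 and 32 fragments. Named were the 10 genes, their relatives, and of the wider list the 5 with most peaks (6 with a tie), the 5 highest and those with none. The genes and lists were chosen with earlier results of these data known. Alternatives were a −log10 q of at least 10, a fold at or above the list median, peaks touching the span, spans widened by 1 kb, summits in no other gene, widths up to 631 bp, and the median over a gene's peaks. Bases under most peaks were not analysed here. The values of 1 relative are not reported here, though it is counted among the 22.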

Additional observations from a re-analysis of the deposited data

How the results depend on the processing

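All 10 genes kept a peak with a −log10 q of at least 10, with peaks touching the span and with spans widened by 1 kb, and 9 did with summits in no other gene or with widths up to 631 bp. Keeping only folds at or above the list median left 14 peaks in 5 genes, with a median fold enrichment of 7.10, higher by construction, and a median width of 548 bp in place of 402, for which the cause was not tested. It also left 30 of the 50 other smooth muscle genes and 6 of the 10 stromal and 3 of the 5 leukocyte markers. The q filter left 2 leukocyte markers. With widths up to 631 bp the median width was 352 bp, by construction, and 0 skeletal muscle markers held a peak, while spans widened by 1 kb gave 3. The cause of that last value was not tested. The number of peaks was otherwise 61 to 86. For the highest fold enrichment, the width limit moved 3 of 9 genes outside their interval (Smtn to 9.86, Des to 4.08, Myocd to 7.17). The median over a gene's peaks moved 8 of 10, all lower since a median replaces a maximum. The count against the 200 nearest peaks was chosen after seeing the data. Myocd peaks rested on 13 to 30 fragments, with a median of 22.5, beside 22 for the list. The effect of depth was not tested. Placement by transcript was not run, since no exons were used here. No paired analysis was possible because each group has 1 library.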

Other observations

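Within 3 kb of the 10 spans, 3 further peaks had their summits in neighbouring genes. That nearest to Smtn lay 513 bp beyond its lower end (chromosome 11, 3516691 to 3517191), in Selenom, at a fold enrichment of 6.87 on 72 fragments. Beyond Myh11 a peak in Nde1 lay 2067 bp away at 2.27, and beyond Tagln one in Sidt2 lay 2973 bp away at 5.30. Only the first was added when spans were widened by 1 kb. These peaks were named after their values were seen.

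In Mylk, 4 of the 19 summits also lay in the long non-coding RNA genes 1700119H24Rik (1 summit) and E130310I04Rik (3 summits), at fold enrichments of 2.63, 2.77, 4.72 and 6.60. Across the 10 genes 11 of 85 summits lay in a further gene, in Tagln, Smtn and Mylk.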
